A study of Mus musculus with 9 samples.

Results

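The genes described here are the ephrin, Slit and netrin guidance genes of mouse, 39 of the 55357 gene identifiers in the deposited table. They were chosen by name: every identifier with a protein-coding symbol of an Eph receptor, an ephrin, a Slit, a Robo, a netrin, Dcc, Neo1 or an Unc5 receptor was taken, whatever its level. This gave 14 Eph receptors, 8 ephrins, 3 Slits, 4 Robo receptors, 4 netrins and 6 netrin receptors. The series holds 9 poly(A) RNA-seq libraries from 3 sorted keratinocyte populations of back skin, with 3 libraries each, and by its title the study was about epidermal lineage traits of touch dome keratinocytes marked by Tenascin-C.

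All libraries came from C57BL/6 mice at postnatal day 60 with the genotype TNC-CREER; tdTomato, in which a tamoxifen-inducible Cre named for the Tenascin-C gene (Tnc) turns on a red reporter. Every group had received tamoxifen at 100 µg per g of body weight on postnatal days 51 and 52. All 3 populations were sorted as positive for EPCAM, an epithelial surface protein, and for integrin α6, a basal keratinocyte adhesion protein. Touchdome cells also carried SCA1 and the reporter, IFE cells (interfollicular epidermis, the skin surface between hairs) carried SCA1 without the reporter, and HF cells (hair follicle) carried neither. The Touchdome population is thus whatever surface keratinocytes carried the reporter, not cells picked by position. Whether libraries of one population are from different mice is not in the labels, and p-values therefore reflect only how far these samples spread, which may be technical.

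Eph receptors are membrane tyrosine kinases that bind ephrins on neighbouring cells. EphA receptors mostly bind ephrin-A proteins, which are held to the membrane by a lipid anchor, and EphB receptors mostly bind ephrin-B proteins, which span it, and contact can signal into both cells. Slits are secreted proteins that bind Robo receptors and are best known for repelling axons. Netrins are laminin-related proteins that attract or repel through Dcc, neogenin (Neo1) and the Unc5 receptors. In skin, Eph and ephrin proteins are known for roles in keratinocyte adhesion and differentiation, and touch domes are the patches where sensory nerves meet Merkel cells.

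Total expected counts ran from 9295059 to 28249763 per library, and a count of 0 allowed at most 0.114 to 0.316 CPM (counts divided by the TMM-scaled library size), for counting error only. Of the sort genes, Ly6a, which encodes SCA1, lay at 0.422 to 1.9 CPM in HF against 104 to 180 CPM in the SCA1-positive populations. Tnc lay at 200 to 288 CPM in Touchdome, but the reporter-negative populations differed, with 40.6 to 56.9 CPM in HF and 1.13 to 7.16 CPM in IFE (HF against IFE 3.33 ± 0.50 on the log2 scale, adjusted p = 0.00137, edgeR). Between HF and IFE, both sorted as positive for the proteins, Itga6 (integrin α6) was lower in HF (-1.43 ± 0.16, adjusted p = 2.37e-05, edgeR) and Epcam higher (0.90 ± 0.21, adjusted p = 0.00718). The 6 basal keratinocyte markers had counts in all groups, and their summed level was 23200 to 24300 CPM in HF, 36500 to 41000 CPM in Touchdome and 46600 to 51800 CPM in IFE. Touchdome replicate 3 stood apart from the other Touchdome libraries in hair follicle markers, with Cd34 at 98.8 CPM against 20.1 and 23.8 CPM, Lgr5 at 52.7 CPM against 12.5 and 11 CPM, and Lhx2 at 77.3 CPM against 23.7 and 29.6 CPM. Every IFE library lay below every Touchdome library in these genes, with Cd34 at 1.42 to 2.54 CPM and Lhx2 at 5.42 to 6.89 CPM. Cd34 (4.60 ± 0.74, adjusted p = 0.0356, edgeR) and Lhx2 (2.88 ± 0.44, adjusted p = 0.0213) passed for Touchdome against IFE. Lgr5 did not (3.62 ± 0.71, adjusted p = 0.0784), nor did the other hair follicle markers, of which Krt15 lay lower (-0.46 ± 0.16, adjusted p = 0.276). HF replicate 3 was low in Langerhans cell markers, with Cd74 at 40.6 CPM against 237 and 222 CPM. The 6 endothelial markers summed to 2.41 to 3.32 CPM in Touchdome, 0.719 to 0.842 CPM in IFE and 0 to 2.01 CPM in HF. Of 6 Merkel cell markers, 3 had counts in Touchdome, 3 in IFE and 2 in HF, with sums of 1.33 to 9.53, 0.114 to 0.316 and 1.9 to 2.82 CPM. Atoh1 and Sox2 were at 0 in all 9 libraries and Krt20 had counts in Touchdome only, while Krt8, at 7.16, 0.804 and 0.996 CPM in Touchdome, was higher there than in IFE (5.37 ± 1.04, adjusted p = 0.0225, edgeR). In bulk samples such as these, fewer cells of a type and less RNA per cell cannot be told apart.

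The guidance genes took 0.305% to 0.333% of the counts of an HF library, 0.18% to 0.223% of a Touchdome library and 0.164% to 0.186% of an IFE library, so the HF range lay above both others. Of the 39 genes, 26 passed the filter on low counts and were tested, and 13 did not. Between HF and IFE, 16 of the 26 were higher in HF (61.5%), against 17.1% of all 15046 genes tested, and 2 were lower (7.69%), against 16% of all genes. Touchdome against HF gave 9 lower in Touchdome (34.6%), against 12.8% of all genes, and 2 higher (7.69%), against 11.8%. In Touchdome against IFE, 2 of the 26 were higher in Touchdome (7.69%), against 1.22% of all genes, and 0 were lower, against 0.0798%, all at an adjusted p under 0.05 in edgeR's quasi-likelihood test. At an unadjusted p under 0.05, 0 were lower in Touchdome than in IFE too, and DESeq2 and limma also gave 0. With the replicate number as a block, which pairs the Touchdome and IFE libraries, that comparison over all genes gave 282 higher and 67 lower, against 184 and 12 without it. The block fit put Epha2 lower in Touchdome than in IFE at an unadjusted p of 0.0419 (-0.32 ± 0.14, adjusted p = 0.381, edgeR). The median log2 fold change over the 26 was 0.74 for HF against IFE, -0.59 for Touchdome against HF and 0.19 for Touchdome against IFE, while the median over all genes was 0.00 in each. These comparisons share libraries, so their counts are not independent of each other.

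**Figure D1:**
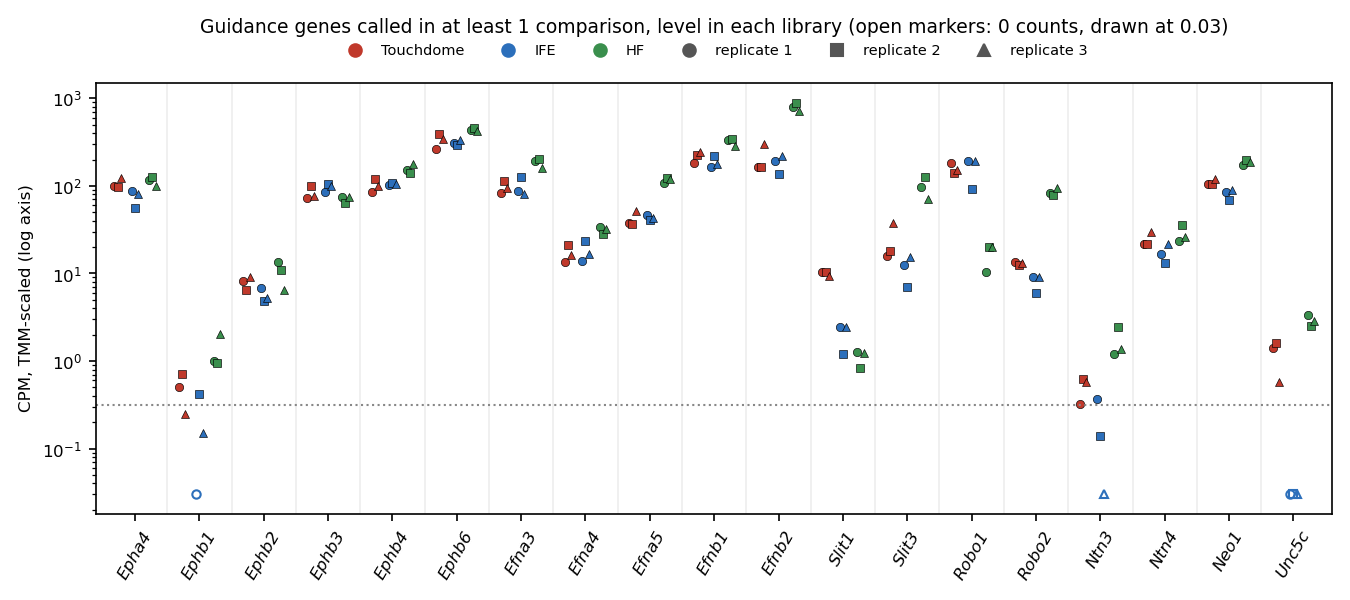
Level of the 19 guidance genes that passed the test in at least 1 comparison, in CPM on a log axis, with 1 marker per library, colour for the population and shape for the replicate. Open markers at 0.03 stand for 0 counts and the dotted line, at 0.316 CPM, is the level that 0 counts allow in the shallowest library; Robo1 is lowest and Robo2 highest in the green HF libraries.

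The promoters of Robo1, Robo2, Slit3 and Efnb2, which had the largest fold changes among the guidance genes that passed in both comparisons with HF and were picked after their values were seen, are shown so that those with and without a GC box, a short element bound by Sp1-like factors, can be seen side by side. Sequences are from RefSeq, build GRCm38.p6, which differs from the build the authors used. Each is the 120 bases just before an annotated start, 5′ to 3′ on the strand of the gene, and capitals mark GGGCGG or its reverse complement. Robo1 lies at chr16:72663029-72663148 on the plus strand. Robo2 has 3 annotated starts on the minus strand, at chr16:74411826-74411945, chr16:75092771-75092890 and chr16:75447294-75447413. Slit3 lies at chr11:35121336-35121455 on the plus strand and Efnb2 at chr8:8661243-8661362 on the minus strand.
Robo1: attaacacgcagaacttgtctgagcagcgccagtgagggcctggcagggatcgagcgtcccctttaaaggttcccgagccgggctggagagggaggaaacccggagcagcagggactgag
Robo2, start 1: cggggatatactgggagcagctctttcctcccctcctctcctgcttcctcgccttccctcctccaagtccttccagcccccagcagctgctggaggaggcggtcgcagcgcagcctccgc
Robo2, start 2: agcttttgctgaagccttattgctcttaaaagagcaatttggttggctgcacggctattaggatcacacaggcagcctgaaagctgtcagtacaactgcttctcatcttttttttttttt
Robo2, start 3: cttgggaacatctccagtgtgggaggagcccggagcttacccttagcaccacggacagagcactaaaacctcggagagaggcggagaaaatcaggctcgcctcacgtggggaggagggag
Slit3: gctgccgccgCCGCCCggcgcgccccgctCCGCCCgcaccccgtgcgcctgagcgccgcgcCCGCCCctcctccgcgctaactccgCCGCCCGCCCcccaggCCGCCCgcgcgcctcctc
Efnb2: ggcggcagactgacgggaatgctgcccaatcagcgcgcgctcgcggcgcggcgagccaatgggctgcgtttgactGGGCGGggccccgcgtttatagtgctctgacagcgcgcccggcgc
The Slit3 stretch held 6 GC boxes, some overlapping, and the Efnb2 stretch 1, while the Robo1 stretch and the 3 Robo2 stretches held 0. The table had a promoter for 34 of the 39 genes (39 windows). In the 250 bases before the start, on both strands, the GC box stood in 27 of the 39 windows (69.2%), against 32.7% of all 32851 windows. The same windows were rich in CpG, with a median of 17 against 6 in all windows. GLI (GACCACCCA) stood in 0 of them against 0.225% of all windows, AP-1 (TGANTCA) in 0 against 6.75%, TCF/LEF (CTTTGA) in 5.13% against 13.8% and TEAD (GGAATG) in 12.8% against 12.6%. A match is a description of these letters, not a binding site.

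Slit ligands differed by gene. Slit1 was high in Touchdome alone of the 3 populations, and Slit3 was high in HF. Slit1 (ENSMUSG00000025020) stood at 10.4, 10.3 and 9.47 CPM in Touchdome, 2.47, 1.2 and 2.42 CPM in IFE, and 1.28, 0.843 and 1.25 CPM in HF. Every Touchdome library was above every other library. The log2 fold change of Slit1 was 2.29 ± 0.35 (SE) against IFE (adjusted p = 0.00555, edgeR) and 3.13 ± 0.37 against HF (adjusted p = 5.39e-05). HF against IFE gave -0.84 ± 0.36 for Slit1 (adjusted p = 0.0975), which passed without IFE replicate 2 (adjusted p = 0.0272). The sum of the Merkel cell markers, given above, was also higher in Touchdome than in IFE. Krt8, the 1 marker of that list tested, was higher in HF than in IFE too (4.83 ± 1.04, adjusted p = 0.003, edgeR). Touchdome against HF gave 0.54 ± 0.77 for Krt8 (adjusted p = 0.678). Krt18 and Krt20 had few counts and were not tested, but both were highest in Touchdome, as Slit1 was. Krt18 lay at 0.268 to 1.98 CPM there, at most 0.158 CPM in IFE and at most 0.262 CPM in HF, and Krt20 had counts in Touchdome only. The part of Merkel cells in the Slit1 result was not tested. In TPM, the deposited length-scaled unit, Slit1 stood at 6.1, 4.11 and 2.93 in Touchdome and at 0.3 to 1.34 in IFE, so that the Touchdome libraries spread more on that scale. The Touchdome against IFE call was lost with limma on log2(TPM + 0.1), where the adjusted p was 0.0716, and kept in the other 15 alternatives.

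Slit3 (ENSMUSG00000056427) stood at 96.6, 125 and 71.1 CPM in HF, 15.9, 18.1 and 38 CPM in Touchdome, and 12.4, 7.03 and 15.3 CPM in IFE. The HF libraries lay above all others, and Touchdome replicate 3 was the highest outside HF. Slit3 was higher in HF than in IFE by 3.06 ± 0.42 on the log2 scale (adjusted p = 0.000638, edgeR) and lower in Touchdome than in HF (-2.03 ± 0.40, adjusted p = 0.00677). Touchdome against IFE gave 1.03 ± 0.41 (adjusted p = 0.407), with no overlap between the groups. Without Touchdome replicate 3, whose hair follicle markers were also high, that value was 0.53 ± 0.31 (adjusted p = 0.855) and Touchdome against HF was -2.52 ± 0.33 (adjusted p = 0.000377). Fibroblast markers were higher in HF than in IFE, as Slit3 was, but overlapped between Touchdome and HF: 7 of 8 had counts in Touchdome, 6 in IFE and 6 in HF, with a summed level of 62.2 to 87.1 CPM in HF, 45.6 to 92.8 CPM in Touchdome and 0.844 to 2.95 CPM in IFE. In HF, Lum and Dpt were at 0 and Dcn at 0 to 0.0655 CPM, and most of the sum was Col1a2. Col1a2 had the order of Slit3 without overlap, at 54.1 to 73.3 CPM in HF, 15.3 to 21.5 CPM in Touchdome and 0 to 0.681 CPM in IFE. It was lower in Touchdome than in HF (-1.83 ± 0.30, adjusted p = 0.00126, edgeR). Dcn, at 16.4 to 25.3 CPM in Touchdome, was higher there than in HF (9.54 ± 0.76, adjusted p = 2.58e-06), opposite to Slit3 in that comparison. Col3a1 (4.84 ± 1.67, adjusted p = 0.0704), Col1a1 (0.15 ± 0.89) and Pdgfra (0.06 ± 0.88) did not pass there. The part of fibroblast RNA in the Slit3 result was not tested.

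Slit2 was not tested. It had 17 counts in Touchdome, of which 14 were in replicate 3, 1 count in IFE and 28 counts in HF, of which 22 were in replicate 1. HF over IFE was 35.8-fold with a 95% counting interval of 5.92 to 1460, and Touchdome over IFE 26.1-fold (4.09 to 1090). Both rest mostly on a single library. DESeq2, which kept the gene, called it higher in HF than in IFE (adjusted p = 0.0412).

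The Robo receptors for these ligands showed opposite patterns in HF: Robo1 was low there and Robo2 high. Robo1 (ENSMUSG00000022883) stood at 181, 142 and 153 CPM in Touchdome, 191, 91.5 and 192 CPM in IFE, and 10.3, 19.8 and 20 CPM in HF. All SCA1-positive libraries lay above all HF libraries. Robo1 was higher in Touchdome than in HF by 3.27 ± 0.35 on the log2 scale (adjusted p = 0.000218, edgeR) and lower in HF than in IFE (-3.26 ± 0.35, adjusted p = 0.000136). Between Touchdome and IFE it differed by 0.00 (95% interval -0.72 to 0.73, adjusted p = 0.998), an interval that leaves room for a difference in either direction.

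Robo2 (ENSMUSG00000052516) stood at 83.4, 79 and 94.6 CPM in HF, 13.4, 12.5 and 13 CPM in Touchdome, and 9, 6.05 and 9.09 CPM in IFE. The 3 groups did not overlap. It was higher in HF than in IFE by 3.40 ± 0.17 (adjusted p = 3.15e-08, edgeR) and lower in Touchdome than in HF (-2.73 ± 0.16, adjusted p = 2.46e-07). Touchdome against IFE gave 0.68 ± 0.16 and did not pass (adjusted p = 0.0749), while the fit with the replicate block gave 0.69 ± 0.15 and passed (adjusted p = 0.0327). On the TPM scale the ratio of Robo1 to Robo2 was 3.98, 6.32 and 4.17 in Touchdome, 11.9, 5.9 and 7.69 in IFE, and 0.0988, 0.0923 and 0.0823 in HF. Robo1 was thus the main Robo transcript in each Touchdome and IFE library and Robo2 in each HF library. Summed Robo TPM was 46.5 ± 6.21 in Touchdome, 39.7 ± 14.8 in IFE and 56.5 ± 3.45 in HF (SD, n = 3), and its lowest HF value, 54.2 TPM, lay just above the highest Touchdome value, 51.6 TPM. Robo4, known from endothelium, had 3 counts in Touchdome and 0 elsewhere, and Robo3, known for steering axons across the midline, had 15 counts in HF replicate 1, 2 in IFE and 0 in the other libraries.

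**Figure D2:**
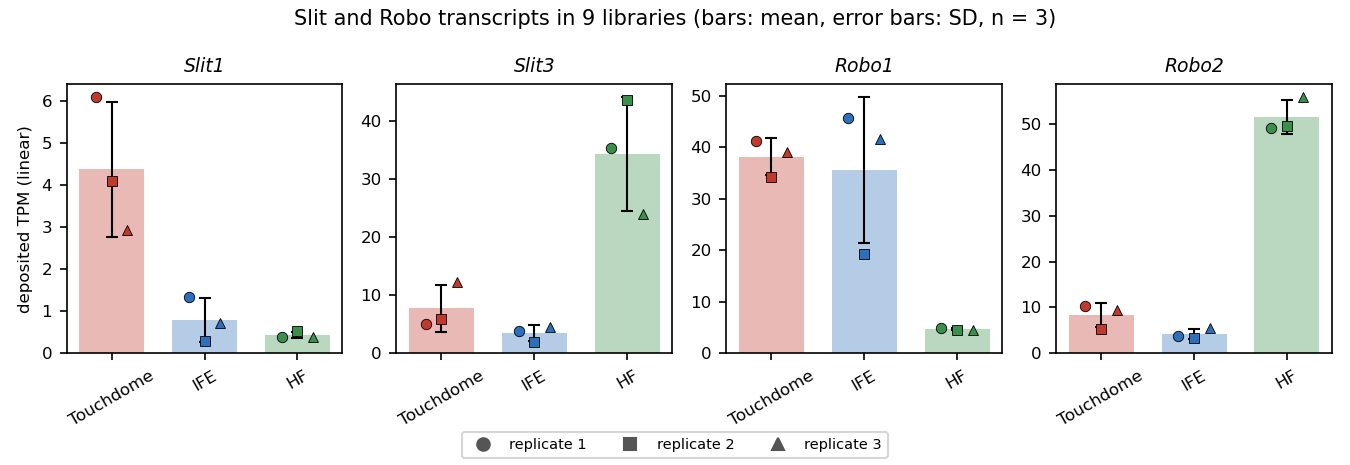
Deposited TPM of Slit1, Slit3, Robo1 and Robo2, with 1 marker per library, bars for the mean and error bars for the SD (n = 3). Slit1 is highest in Touchdome (2.93 to 6.1 TPM), Slit3 and Robo2 in HF, and Robo1 is at 4.58 to 4.85 TPM in HF against 19.36 to 45.58 TPM elsewhere.

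Partners of Slit and Robo were read from a list of 12 genes, all tested. Between HF and IFE, 5 were higher and 3 lower in HF (median log2 fold change 0.27, against 0.00 over all genes), beside 17.1% and 16% of all genes. In Touchdome against HF, 2 were higher and 4 lower (median -0.30), against 11.8% and 12.8% of all genes. Between Touchdome and IFE, 0 passed (edgeR), with 2 at an unadjusted p under 0.05. Gpc1, a heparan sulfate proteoglycan that binds Slits, stood at 107 ± 13.7 CPM in HF, 251 ± 25.3 CPM in IFE and 227 ± 12.1 CPM in Touchdome, and was lower in HF than in IFE (-1.22 ± 0.13, adjusted p = 1.11e-05, edgeR). The 3 srGAP genes encode GTPase-activating proteins that bind the Robo tail, and they did not move together. Srgap3 was higher in HF than in IFE by 2.81 ± 0.39 (adjusted p = 0.000123) and Srgap1 by 1.49 ± 0.26 (adjusted p = 0.000765), while Srgap2 was lower by -0.71 ± 0.14 (adjusted p = 0.00204). Touchdome against HF gave 1.08 for Gpc1, -1.55 for Srgap1, 0.76 for Srgap2 and -1.88 for Srgap3, and each passed.

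Of the 8 ephrins, the membrane-bound ligands, 5 were higher in HF than in IFE and 0 lower, beside 17.1% and 16% of all genes. The same 5 were lower in Touchdome than in HF and 0 higher, beside 12.8% and 11.8% of all genes. Between Touchdome and IFE, 0 of 8 passed (edgeR), beside 1.22% higher and 0.0798% lower of all genes. The median log2 fold change of the ephrins there was -0.02. Efnb2, the ephrin-B2 ligand known from arteries and axon tracts, had the largest fold change among them. Efnb2 (ENSMUSG00000001300) measured 794, 894 and 722 CPM in HF, 165, 166 and 299 CPM in Touchdome, and 192, 137 and 217 CPM in IFE. The lowest HF library was above the highest other library, Touchdome replicate 3. Efnb2 was higher in HF than in IFE by 2.14 ± 0.25 (adjusted p = 8.2e-05, edgeR) and lower in Touchdome than in HF (-1.94 ± 0.25, adjusted p = 0.000251). Without Touchdome replicate 3 the latter was -2.28 ± 0.20 (adjusted p = 3.97e-06). Of the 6 endothelial markers, 4 had counts in HF (Pecam1, Cdh5, Tek and Cldn5, the highest Tek at 1.25 CPM) and Kdr and Emcn were at 0 there. Of 4 mural cell markers, 4 had counts in HF and Touchdome and 3 in IFE, where Myh11 was at 0. Their sum was highest in HF, as Efnb2 was, at 576 to 632 CPM in HF, 108 to 210 CPM in Touchdome and 66.9 to 118 CPM in IFE. Nearly all of that was Cspg4, and Rgs5, Acta2 and Myh11 were each at most 1.76 CPM in any library. Acta2 went the other way, at 0.316 to 0.64 CPM in HF and 0.833 to 1.76 CPM in IFE (-1.55 ± 0.66, adjusted p = 0.0895, edgeR). Rgs5 overlapped between HF and IFE. The part of these cells in the Efnb2 result was not tested.

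Efna5, a lipid-anchored ephrin-A ligand, measured 108, 122 and 120 CPM in HF, 37.2, 36.7 and 51.8 CPM in Touchdome, and 46.1, 40.9 and 42.5 CPM in IFE. Touchdome and IFE overlapped, and HF lay above both. The difference was 1.44 ± 0.14 for HF against IFE (adjusted p = 7.77e-06, edgeR) and -1.48 ± 0.14 for Touchdome against HF (adjusted p = 1.06e-05). Efna3 stood at 192, 203 and 158 CPM in HF, 84, 115 and 94.8 CPM in Touchdome, and 87.9, 126 and 79.9 CPM in IFE. Its difference was 0.91 ± 0.18 for HF against IFE (adjusted p = 0.00169) and -0.91 ± 0.18 for Touchdome against HF (adjusted p = 0.00246). Efna4 lay at 33.6, 28.1 and 32.6 CPM in HF, 13.4, 21 and 16.3 CPM in Touchdome, and 14, 23.7 and 16.7 CPM in IFE. HF against IFE gave 0.80 ± 0.21 (adjusted p = 0.0103) and Touchdome against HF -0.90 ± 0.21 (adjusted p = 0.00739), the latter lost without Touchdome replicate 1 (adjusted p = 0.0502). Reads of Efna4 could not be told from those of an overlapping antisense gene, since the strand setting is not given in the sources used here.

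Efnb1, an X-linked ephrin-B ligand, measured 338, 343 and 286 CPM in HF, 184, 225 and 241 CPM in Touchdome, and 166, 219 and 180 CPM in IFE. HF was again above both other groups, which overlapped. The difference was 0.77 ± 0.14 for HF against IFE (adjusted p = 0.000985, edgeR) and -0.57 ± 0.14 for Touchdome against HF (adjusted p = 0.00983), the latter lost without Touchdome replicate 1 (adjusted p = 0.0678). Efna1 did not pass in any comparison. It stood at 110, 103 and 128 CPM in HF, 93.4, 84.3 and 108 CPM in Touchdome, and 99.6, 102 and 91.2 CPM in IFE (HF against IFE 0.22 ± 0.12, adjusted p = 0.206). Efna1, Efna3 and Efna4 are neighbours on chromosome 3 in GRCm38, so adjacent genes of the family differed in whether they passed. Efna2 and Efnb3 were low, at 5.5 to 13.5 CPM and 0.384 to 2.88 CPM, and did not pass. Efna2 was at 0.71 ± 0.26 for HF against IFE (adjusted p = 0.0547) and passed in 7 of 16 alternatives.

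On the TPM scale the leading ephrin differed between populations. Efnb2 over Efnb1 was 1.6, 1.86 and 1.87 in HF, 0.659, 0.489 and 0.852 in Touchdome, and 0.8, 0.418 and 0.894 in IFE, so the order of these transcripts was turned in each HF library. Summed ephrin-B TPM was 501 ± 47.8 in HF, 194 ± 41.7 in Touchdome and 154 ± 12.2 in IFE, and summed ephrin-A TPM 471 ± 22.5, 268 ± 10.1 and 243 ± 21.7 (SD, n = 3 each). Efna1 held the largest share of ephrin-A TPM in Touchdome (45.9%) and IFE (46.9%), and Efna3 in HF (41.8%).

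**Figure D3:**
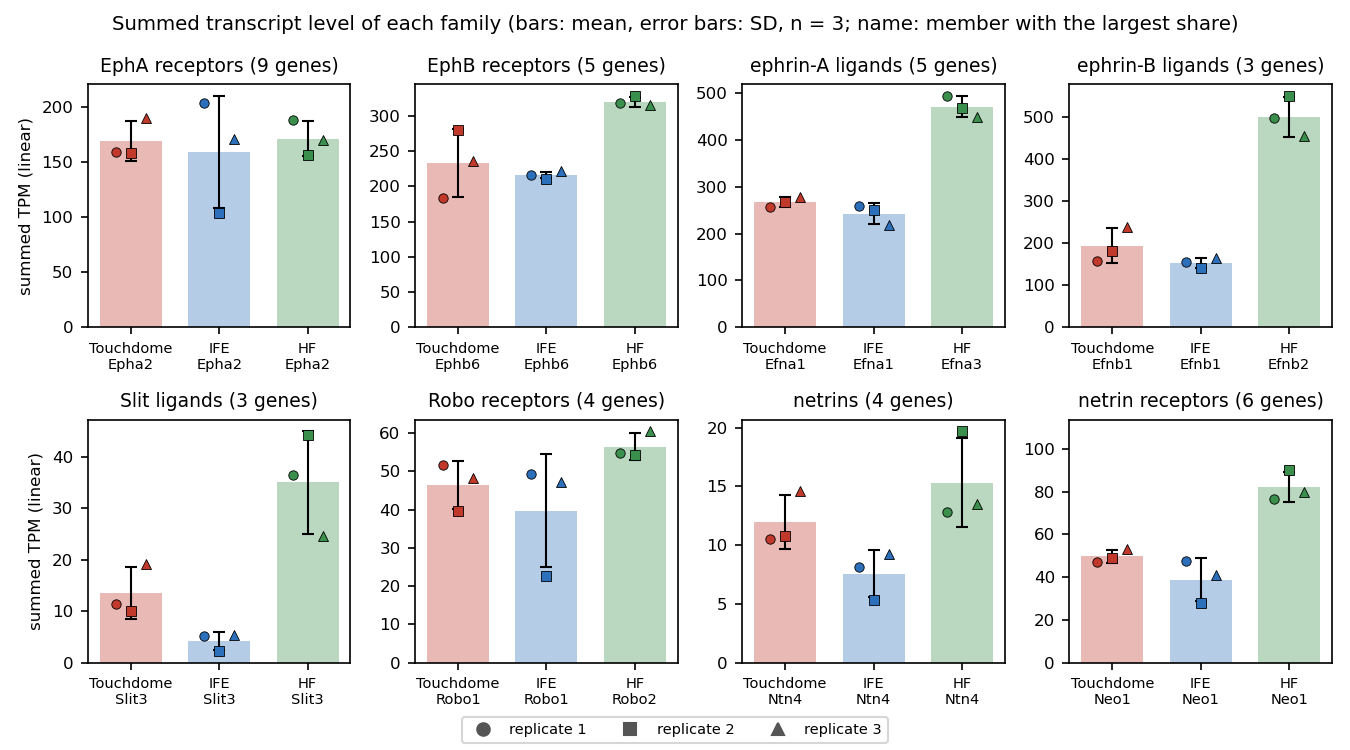
Summed deposited TPM of 8 families in each library, with bars for the mean and error bars for the SD (n = 3) and, under each population, the member with the largest share. Both ephrin families, the EphB receptors, Slits, Robos and netrin receptors are higher in every HF library than in any other. EphA receptors overlap between the 3 populations, and netrins overlap between HF and Touchdome.

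Of the Eph receptors, 9 were tested. Against IFE, 5 were higher and 1 lower in HF, beside 17.1% and 16% of all genes. In Touchdome against HF, 1 of the 9 was lower and 0 higher, beside 12.8% and 11.8% of all genes, and 0 passed between Touchdome and IFE (edgeR). Ephb6, a family member without kinase activity, held 63.3% to 67.7% of EphB TPM in each population. It measured 437, 455 and 423 CPM in HF, 264, 390 and 341 CPM in Touchdome, and 305, 295 and 337 CPM in IFE. HF lay above both, and the difference was 0.49 ± 0.14 against IFE (adjusted p = 0.0165, edgeR), lost without HF replicate 2 (adjusted p = 0.0565). Touchdome against HF gave -0.40 for Ephb6, just short of the threshold (adjusted p = 0.0523, edgeR). It passed in several alternatives, among them DESeq2 (adjusted p = 0.0302) and limma on log2(TPM + 1) (adjusted p = 0.0392). Without Touchdome replicate 1 it was -0.24 (adjusted p = 0.252, edgeR). Ephb4, the main receptor of ephrin-B2, stood at 152, 140 and 177 CPM in HF, 85.2, 119 and 99.3 CPM in Touchdome, and 102, 108 and 106 CPM in IFE. HF against IFE gave 0.57 ± 0.13 (adjusted p = 0.00501) and Touchdome against HF -0.63 ± 0.13 (adjusted p = 0.00384). Ephb3 was the receptor lower in HF, at 74, 64.5 and 73.7 CPM, against 85.7, 106 and 101 CPM in IFE and 71.9, 98.5 and 77 CPM in Touchdome. The difference to IFE was -0.46 ± 0.14 (adjusted p = 0.0206), and it did not pass in 5 of 16 alternatives, including those without IFE replicate 2, IFE replicate 3 or HF replicate 2.

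Epha4, which binds ephrins of both classes, stood at 117, 125 and 100 CPM in HF, 100, 98.4 and 123 CPM in Touchdome, and 87.5, 55.4 and 80 CPM in IFE. IFE lay below both other groups. Epha4 was higher in HF than in IFE by 0.62 ± 0.16 (adjusted p = 0.0111, edgeR), and Touchdome against IFE gave 0.52 ± 0.16 (adjusted p = 0.201). Epha2, the receptor with the largest share of EphA TPM (42.2% to 58.4% by population), did not pass. It measured 177, 143 and 196 CPM in Touchdome, 287, 136 and 241 CPM in IFE, and 171, 115 and 162 CPM in HF, with replicate 2 the lowest of each group. HF against IFE gave -0.57 ± 0.26 for Epha2 (adjusted p = 0.123, edgeR), and without IFE replicate 2 it was -0.82 ± 0.18 and passed (adjusted p = 0.00488). Epha1 was at 86.6 to 111 CPM and did not pass, and it overlaps Zyx on the opposite strand, so its reads are uncertain. Summed EphA TPM was 169 ± 17.9 in Touchdome, 159 ± 50.6 in IFE and 171 ± 15.9 in HF (SD, n = 3).

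The remaining EphB calls rested on few counts or single libraries. Ephb2 stood at 13.5, 10.9 and 6.49 CPM in HF, 8.18, 6.44 and 9.22 CPM in Touchdome, and 6.89, 4.85 and 5.26 CPM in IFE, so HF overlapped IFE. HF against IFE gave 0.86 ± 0.29 (adjusted p = 0.0387, edgeR) and did not pass in 8 of 16 alternatives, including those without HF replicate 1, HF replicate 2, IFE replicate 2, IFE replicate 3 or Touchdome replicate 1. Ephb1 stood at 1.01, 0.948 and 2.03 CPM in HF, 0.511, 0.715 and 0.249 CPM in Touchdome, and 0, 0.422 and 0.151 CPM in IFE. Its 2.84 ± 0.98 for HF against IFE (adjusted p = 0.0406) did not pass in 10 of 16 alternatives, among them 8 of the 9 that leave out a library (all but IFE replicate 2). Epha7, named after its values were seen, had 33 counts in Touchdome, 7 in IFE and 11 in HF, and Touchdome lay above both without passing (adjusted p = 0.328 against IFE). Epha5, Epha6 and Epha8 were at 0 in all 9 libraries, and Epha3 and Epha10 had at most 10 counts in any population.

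Partners of Eph and ephrin signalling followed a list of 21 genes, of which 18 were tested. Between HF and IFE, 4 were higher and 1 lower in HF (median 0.11, against 0.00 over all genes), beside 17.1% and 16% of all genes. Relative to HF, Touchdome had 1 higher and 4 lower (median -0.09), against 11.8% and 12.8% of all genes. Between Touchdome and IFE, 0 passed (edgeR), with 1 at an unadjusted p under 0.05. Ngef, which encodes ephexin, a protein that binds EphA receptors, stood at 26.2 ± 2.89 CPM in HF, 4.45 ± 1.18 CPM in Touchdome and 2.8 ± 0.809 CPM in IFE. It was higher in HF than in IFE by 3.22 ± 0.26 (adjusted p = 1.79e-06, edgeR) and lower in Touchdome than in HF (-2.56 ± 0.26, adjusted p = 1.51e-05). Grip1 and Sdcbp, scaffold proteins that bind the ephrin-B tail, were higher in HF than in IFE by 2.24 ± 0.29 (adjusted p = 0.000109) and 0.68 ± 0.11 (adjusted p = 0.000343), and the adaptor Nck2 by 1.10 ± 0.14 (adjusted p = 4.82e-05). Touchdome against HF gave -1.81 for Grip1, -0.74 for Sdcbp and -1.07 for Nck2, and each passed.

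The netrins themselves were scarce, and Ntn4 made up most of their TPM (95.6% in Touchdome, 97.6% in IFE, 92.3% in HF). Ntn4, a basement membrane protein, measured 23.4, 35.9 and 26.1 CPM in HF, 21.7, 21.6 and 29.5 CPM in Touchdome, and 16.8, 13.2 and 21.6 CPM in IFE. HF lay above IFE by 0.71 ± 0.22 (adjusted p = 0.0221, edgeR), lost without IFE replicate 1, IFE replicate 2 or HF replicate 2, and Touchdome against IFE gave 0.49 ± 0.22 (adjusted p = 0.446). Ntn3 stood at 1.19, 2.42 and 1.38 CPM in HF, 0.32, 0.626 and 0.581 CPM in Touchdome, and 0.368, 0.141 and 0 CPM in IFE. Its difference of 3.28 ± 0.98 for HF against IFE (adjusted p = 0.0206) was lost without IFE replicate 2, IFE replicate 3 or HF replicate 2. Ntn3 overlaps Tbc1d24 on the same strand, which had 596 counts against 98 for Ntn3, so its reads are uncertain. Ntn1, the founding netrin, was not tested: it had 23 counts in Touchdome, 14 in HF and 2 in IFE, a ratio of 17.6 for Touchdome over IFE (95% counting interval 4.36 to 154). The Touchdome counts were 8, 1 and 14 by library, a spread that the counting interval leaves out. DESeq2, which kept Ntn1, did not call it for Touchdome against IFE (adjusted p = 0.19).

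Of the netrin receptors, Neo1 and Unc5b were abundant and Dcc was at 0 in all 9 libraries. Neo1, which encodes neogenin, also a receptor for repulsive guidance molecules, measured 175, 199 and 188 CPM in HF, 106, 106 and 119 CPM in Touchdome, and 84.3, 68.9 and 89.2 CPM in IFE. The 3 groups did not overlap. Neo1 was higher in HF than in IFE by 1.21 ± 0.12 (adjusted p = 8.81e-06, edgeR) and lower in Touchdome than in HF (-0.76 ± 0.12, adjusted p = 0.000478). Touchdome against IFE gave 0.45 ± 0.12 and did not pass (adjusted p = 0.113). Unc5b did not pass in any comparison, at 48.4, 49.3 and 50.1 CPM in Touchdome, 67, 45.3 and 59.1 CPM in IFE, and 65.1, 72 and 58.8 CPM in HF. Touchdome was below HF without overlap (-0.40 ± 0.14, adjusted p = 0.0585), and this passed without IFE replicate 1 (adjusted p = 0.0427) or IFE replicate 2 (adjusted p = 0.0152). The same difference passed when only Touchdome and HF libraries entered (adjusted p = 0.0228, edgeR).

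Unc5c, a receptor for repulsion by netrin, had 0 counts in the 3 IFE libraries. It stood at 1.41, 1.61 and 0.581 CPM in Touchdome (47 counts) and 3.34, 2.53 and 2.88 CPM in HF (141 counts). Against the level that 3 counts over the IFE group allow, Unc5c was at least 24-fold higher in Touchdome (adjusted p = 0.00841, edgeR) and at least 60.1-fold higher in HF (adjusted p = 0.000111). Touchdome against HF gave -1.28 ± 0.61 (adjusted p = 0.165). The Touchdome call was lost with limma on log2(TPM + 1) and on log2(TPM + 0.1), and the gene did not pass the filter when only Touchdome and IFE libraries entered. The fibroblast markers given beside Slit3, and melanocyte markers (6 of 6 with counts in Touchdome and HF, 5 of 6 in IFE with Tyr at 0), also had lower sums in IFE: the latter summed to 98.6 to 129 CPM in HF, 16 to 50.4 CPM in Touchdome and 9.92 to 14.3 CPM in IFE, with Mitf the main part in HF. None of the 4 melanocyte markers tested passed for Touchdome against IFE. Dct (2.76 ± 0.88, adjusted p = 0.253, edgeR) and Tyrp1 (4.30 ± 1.25, adjusted p = 0.175) were higher in Touchdome without overlap, as Unc5c was. Mitf (0.61 ± 0.33, adjusted p = 0.6) and Pmel (0.72 ± 0.62, adjusted p = 0.796) overlapped. The summed Merkel cell markers were lowest in IFE too. Cd34 and Lhx2, hair follicle markers given above, had the order of Unc5c, with HF highest and IFE lowest. The part of any of these cell types in the Unc5c result was not tested. Unc5a showed the other order, with 45 counts in IFE, 8 in Touchdome and 4 in HF. It was not tested, and it was at 0.631, 0.563 and 0.946 CPM in IFE. Without the filter, the fit gave an adjusted p of 0.759 for Unc5a in Touchdome against IFE and 0.172 in HF against IFE. Unc5d and Ntn5 had at most 5 counts in any population.

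**Figure D4:**
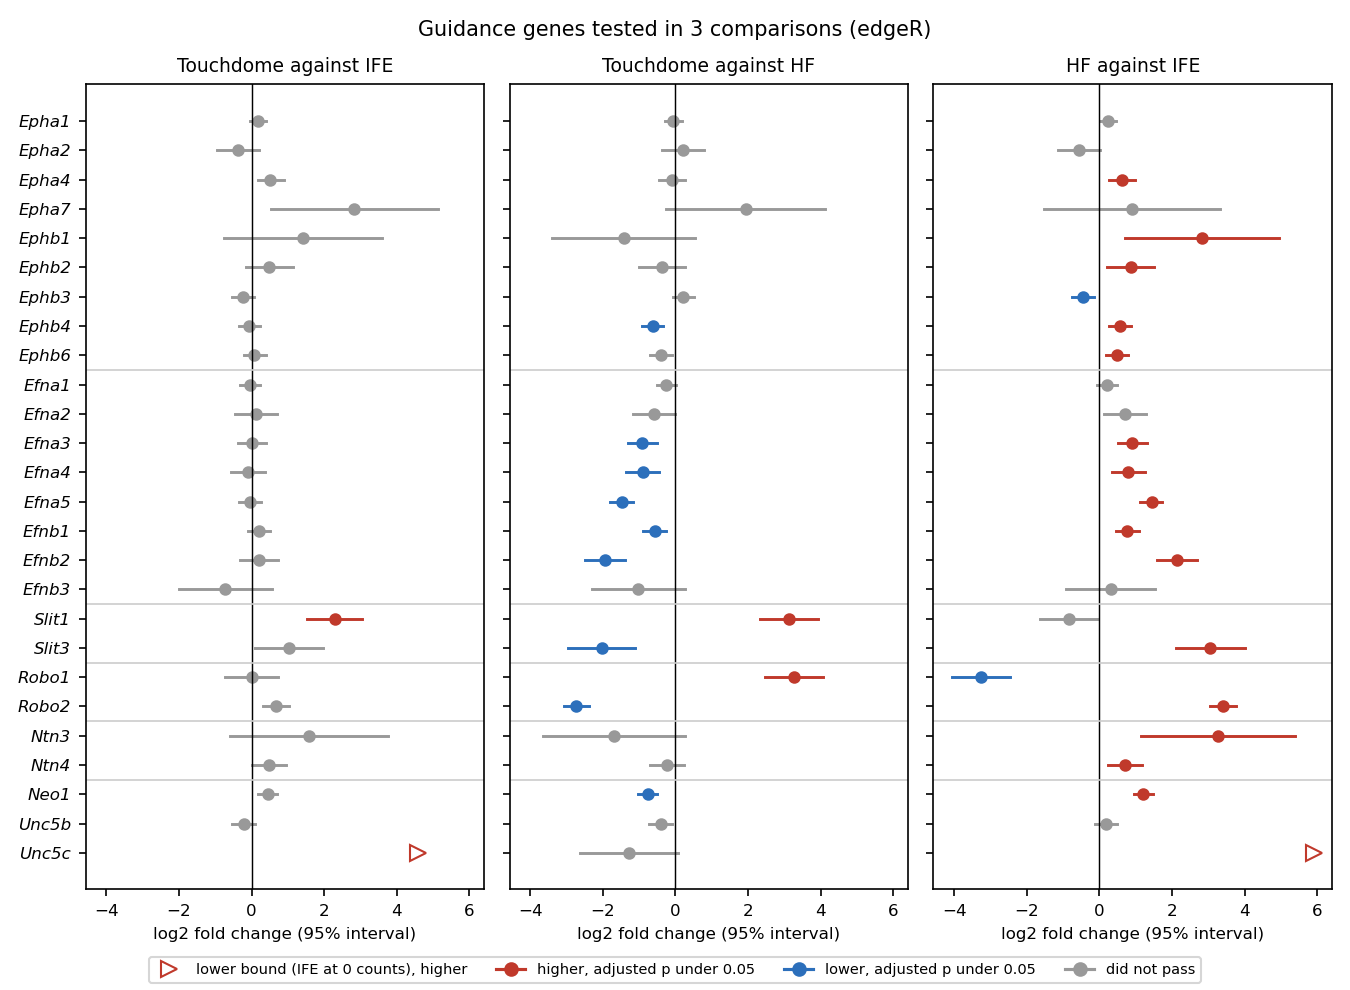
Log2 fold change with its 95% interval for the 26 guidance genes tested, in Touchdome against IFE, Touchdome against HF and HF against IFE. Red and blue mark genes higher and lower at an adjusted p under 0.05, and open triangles give the lower bound for Unc5c against IFE; Slit1 and Unc5c are the coloured genes in the panel for Touchdome against IFE, and 18 are coloured in the panel for HF against IFE.

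Netrin receptor partners, read from a list of 21 genes with 18 tested, held 3 genes higher in Touchdome than in IFE and 0 lower (median 0.11), against 1.22% and 0.0798% of all genes. Between HF and IFE, 8 were higher and 2 lower (median 0.54), against 17.1% and 16% of all genes. Touchdome had 3 higher and 7 lower than HF (median -0.28), against 11.8% and 12.8%. Dscaml1, an adhesion molecule related to the netrin-binding DSCAM, stood at 7.7 ± 2.02 CPM in Touchdome, 2.41 ± 0.353 CPM in HF and 0.0252 ± 0.0437 CPM in IFE, where it had 2 counts. It was higher in Touchdome than in IFE (adjusted p = 0.000137, edgeR), with a count ratio of 222 (95% counting interval 61 to 1850). Touchdome against HF gave 1.66 ± 0.43 (adjusted p = 0.0132). Fyn, a Src-family kinase that signals from netrin receptors, stood at 16.2 ± 2.11 CPM in HF, 3.09 ± 0.581 CPM in Touchdome and 0.526 ± 0.283 CPM in IFE, a difference of 2.58 ± 0.40 for Touchdome against IFE (adjusted p = 0.00604) and 4.98 ± 0.40 for HF against IFE (adjusted p = 1.6e-06). Enah, an actin regulator of the Ena/VASP family, stood at 182 ± 6.01 CPM in HF, 117 ± 17.8 CPM in Touchdome and 59.3 ± 15.1 CPM in IFE, with 0.98 ± 0.18 for Touchdome against IFE (adjusted p = 0.0155, edgeR). Rgma and Rgmb, neogenin ligands of the repulsive guidance family, went opposite ways: in HF, Rgma was at 147 ± 33.3 CPM against 51.4 ± 0.503 CPM in IFE (1.51 ± 0.18, adjusted p = 4.38e-05), and Rgmb at 86 ± 0.718 CPM against 167 ± 28.2 CPM in Touchdome (Touchdome against HF 0.96 ± 0.13, adjusted p = 0.000204). Flrt2, an adhesion protein that binds Unc5 receptors, was lower in Touchdome than in HF (-1.12 ± 0.17, adjusted p = 0.000391).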

How the data were processed

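Libraries started from 50 ng of RNA each, selected for poly(A), with paired reads of 150 nt per the labels' protocols. The tools named are STAR 2.7.9a, RSEM 1.3.3 and DESeq2 1.38.2, with the build mm39, per the submitters' processing notes; what each did, which annotation was used and how strand was treated is not given in the sources used here. Expected counts, as deposited, are the authors' estimate of reads per gene and need not be whole. TPM values, also as deposited, are scaled by length, carry no depth, and were used to compare levels between genes and as an alternative. Gene names came from a GRCm38 annotation, which gave a symbol for 52081 identifiers.

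Expected counts were rounded. With edgeR 4.0.16 in R 4.3.3, genes were filtered (minimum count 10, minimum total 15), scaled by TMM and tested by robust quasi-likelihood with the 9 libraries in 1 fit and Benjamini-Hochberg adjustment over 15046 genes (threshold 0.05). Fold changes are log2 values ± SE, and a gene at 0 in a group has a bound against 3 counts over the group. Libraries of the same number deviated together between Touchdome and IFE (correlation of deviations from group means 0.146 to 0.203 in 3 pairs). With HF the values were -0.0257 to 0.0701 for Touchdome and -0.00828 to 0.0592 for IFE. The reported tests used the group only and did not pair libraries. Replicate number entered only in the replicate block, an alternative fit over all 9 libraries, HF included. The 16 alternatives used other scaling, no filter, DESeq2 1.42.0, limma 3.58.1, fewer groups, the replicate block, or 1 library less.

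Members and lists were chosen with earlier results of these data known. Levels in each library are printed for every member called in at least 1 comparison and the 2 with the highest mean TPM of each role; of pathway lists, members called in Touchdome against IFE and the 4 of smallest p in each other comparison are named. The test was checked on simulated data.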

Additional observations from a re-analysis of the deposited data

How the results depend on the processing

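Of the results for single guidance genes under 16 alternatives, 1180 kept their direction where called and their side of the threshold, 35 lost a call, 29 gained one and 0 turned. The number of guidance genes higher in Touchdome than in IFE, 2 as reported, was 4 with DESeq2, 1 with limma on log2(TPM + 1), 0 with limma on log2(TPM + 0.1), 1 with the 2 groups only and 2 when any library was left out; the replicate block gave 3, adding Robo2. Those lower in HF than in IFE, 2 as reported, were 1 with each limma setting and 1 to 3 over the fits without 1 library. Without 1 library, 7 to 11 were lower in Touchdome than in HF, 2 to 2 higher, and 11 to 16 higher in HF than in IFE. Over all genes, Touchdome against IFE gave 439 higher with DESeq2, 100 with limma on log2(TPM + 1), 100 with the 2 groups only, 282 with the replicate block and 105 to 216 without 1 library. It gave 49 lower with no filter, 73 with DESeq2, 0 with each limma setting, 5 with the 2 groups only, 67 with the replicate block and 4 to 29 without 1 library. HF against IFE gave 1209 lower over all genes with limma on log2(TPM + 1) and 1219 with limma on log2(TPM + 0.1). On the TPM scale the median of all genes moved by 0.13 to 0.15 for Touchdome against IFE and 0.19 to 0.21 for HF against IFE, and 71.2% and 70.5% of HF against IFE calls were higher, against 51.7% in edgeR; with the replicate block 80.8% of Touchdome against IFE calls were higher, against 93.9%. The cause of these shifts was not tested. With the replicate block, guidance genes also gained Ephb6 in Touchdome against HF (10 lower) and Efna2 and Epha2 (-0.53, adjusted p = 0.0111) in HF against IFE (17 higher, 3 lower), where the libraries share only a number, and the block removed no call. In all, 8 of 9 libraries correlated best with a library of their own number. Depth limits the 13 genes that were not tested and those near 1 CPM (Ephb1, Ntn3, Unc5c).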

Other observations

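The balance of EphA receptors on the TPM scale, described here without a test, also differed between populations. Epha2 over Epha4 was 4.89, 3.99 and 3.96 in IFE, 2.67, 2.1 and 2.42 in Touchdome, and 2.15, 1.36 and 2.54 in HF, so the lowest IFE library was above every other library, while summed EphA TPM overlapped. Slit1 over Slit3 ran from 0.0113 to 0.0158 in HF, from 0.155 to 0.346 in IFE and from 0.237 to 1.22 in Touchdome, where replicate 3 held the lowest value.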
